A study of Mus musculus with 7 samples.

Results

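HDAC1 peaks were examined across the Hoxd cluster of the mouse limb bud, from Hoxd1 at its 3' end through Hoxd3, Hoxd4, Hoxd8, Hoxd9, Hoxd10, Hoxd11, Hoxd12 and Hoxd13 to Evx2 beyond its 5' end. A peak was included when it overlapped the body of at least 1 of these 10 genes, widened by 10 kb on each side, by at least 1 bp (mm10, GENCODE M21). This left 32 of the 15347 peaks in the list. Since the widened gene bodies run into each other, neighbouring genes share many of these peaks, and they are not independent members. The list came from 4 HDAC1 ChIP samples and 3 input samples, the latter being sheared chromatin with no antibody. Every sample was a pool of forelimb and hindlimb buds of wild-type Swiss Webster embryos at E11.5 (40 to 44 somites), labelled as 3 litters per sample, and no sample carried a mutation or a treatment. Whole limb buds were used, so the cells that carry a peak are not known. The list used here gives coordinates in rank order, 1 list for all samples, and the fold change and false discovery rate that the study describes for each peak were not used here. No value therefore has a replicate error, no test between samples was possible, and the depth behind a peak is unknown. In what follows, rank is the position of a peak in that list, where 1 is the leading peak. The study gives the list as rank-ordered, and the quantity it was ordered by was not used here. Expression is not part of the data, so the labelled tissue was not checked against its marker genes.

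HDAC1 is a class I histone deacetylase that removes acetyl groups from histone tails and works inside corepressor complexes such as NuRD, Sin3 and CoREST. The Hoxd genes encode homeodomain transcription factors that pattern the limb, and they are switched on in an order that follows their order on the chromosome. In the limb, the 5' genes Hoxd10 to Hoxd13 act in the digits and Hoxd9 to Hoxd11 act in the upper limb and forearm. Evx2, an even-skipped homologue next to Hoxd13, shares its distal limb enhancers. Enhancers of the cluster lie in gene deserts on either side, and Polycomb complexes cover the inactive genes.

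The promoters of 5 members and 2 short peaks are printed to show the sequences that HDAC1 peaks did and did not cover. Each promoter runs from 250 bases before to 50 bases after the RefSeq start (GRCm38.p6, the assembly of mm10), 5' to 3' on the strand of the gene, and both peaks are on the plus strand. Capitals mark CpG dinucleotides. All 10 members had a promoter in the RefSeq table, 11 windows in all, since Hoxd11 has a second start. Peaks are numbered from 1, at Hoxd1, to 32, at the far end of Evx2.
Hoxd13, chr2:74667975-74668274: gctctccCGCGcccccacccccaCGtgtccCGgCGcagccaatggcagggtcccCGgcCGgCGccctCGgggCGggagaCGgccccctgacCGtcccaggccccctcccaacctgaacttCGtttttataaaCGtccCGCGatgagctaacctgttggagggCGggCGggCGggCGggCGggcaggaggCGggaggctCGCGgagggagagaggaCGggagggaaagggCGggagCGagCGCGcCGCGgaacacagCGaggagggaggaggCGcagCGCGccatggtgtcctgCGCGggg
Hoxd11, chr2:74682073-74682372: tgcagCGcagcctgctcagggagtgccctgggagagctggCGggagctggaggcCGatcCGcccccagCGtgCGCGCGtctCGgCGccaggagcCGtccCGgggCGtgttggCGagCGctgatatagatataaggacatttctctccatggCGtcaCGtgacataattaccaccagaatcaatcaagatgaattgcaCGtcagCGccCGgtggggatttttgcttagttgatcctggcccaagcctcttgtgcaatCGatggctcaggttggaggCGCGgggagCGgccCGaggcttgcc
Hoxd8, chr2:74704365-74704664: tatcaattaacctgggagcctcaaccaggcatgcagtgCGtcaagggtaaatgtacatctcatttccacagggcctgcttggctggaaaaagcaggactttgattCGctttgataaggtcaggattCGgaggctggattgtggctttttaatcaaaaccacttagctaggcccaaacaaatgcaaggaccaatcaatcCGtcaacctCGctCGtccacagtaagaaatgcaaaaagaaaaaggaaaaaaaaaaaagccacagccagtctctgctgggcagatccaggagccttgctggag
Hoxd4, chr2:74721728-74722027: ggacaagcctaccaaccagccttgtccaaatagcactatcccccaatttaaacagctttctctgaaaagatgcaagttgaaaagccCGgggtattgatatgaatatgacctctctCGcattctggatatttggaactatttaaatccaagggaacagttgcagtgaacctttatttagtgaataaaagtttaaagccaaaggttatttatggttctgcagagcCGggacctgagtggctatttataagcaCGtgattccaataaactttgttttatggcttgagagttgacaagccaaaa
Hoxd1, chr2:74762730-74763029: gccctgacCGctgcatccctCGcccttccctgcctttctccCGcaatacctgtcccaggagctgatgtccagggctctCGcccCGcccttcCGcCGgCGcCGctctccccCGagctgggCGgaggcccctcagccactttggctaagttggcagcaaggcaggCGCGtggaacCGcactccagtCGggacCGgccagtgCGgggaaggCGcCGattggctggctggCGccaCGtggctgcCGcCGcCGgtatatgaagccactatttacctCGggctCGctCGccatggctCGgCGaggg
Peak 3, in an intron of Hoxd3, chr2:74732950-74733149: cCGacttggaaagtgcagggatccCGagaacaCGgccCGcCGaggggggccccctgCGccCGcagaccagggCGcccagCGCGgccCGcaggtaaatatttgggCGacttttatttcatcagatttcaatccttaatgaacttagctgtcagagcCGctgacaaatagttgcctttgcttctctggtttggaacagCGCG
Peak 19, between Hoxd12 and Hoxd11, chr2:74678100-74678349: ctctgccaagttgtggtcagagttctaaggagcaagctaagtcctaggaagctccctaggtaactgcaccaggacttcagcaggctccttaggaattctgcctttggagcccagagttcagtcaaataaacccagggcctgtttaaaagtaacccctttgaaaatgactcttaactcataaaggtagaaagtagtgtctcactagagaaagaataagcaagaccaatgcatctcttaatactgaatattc
The Hoxd13 promoter held 37 CpGs and the Hoxd11 promoter 25, against a median of 7 in all 32851 promoter windows of the table. The Hoxd8 promoter had 6 CpGs and was nonetheless covered in full by peak 10, at rank 505. This window lay near 1 end of peak 10, which as a whole held 227 CpGs, or 7.44 per 100 bp. The window was thus CpG-poor and the peak was not. The Hoxd4 promoter had 4 CpGs and no covered base, while the Hoxd1 promoter had 29 CpGs and 130 covered bases of 300. CpG number and coverage thus did not go together in every window of 300 bases, and CpGs beside a window were not counted in it. Peak 3 held 15 CpGs in its 200 bp and peak 19 none in 250 bp, so both kinds of sequence also occurred in the short peaks away from the starts.

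Each of the 10 genes had at least 1 peak within 10 kb, as did 53.5% of all 21938 protein-coding genes, and the median was 9 peaks per member against 1 per gene overall. At least 5 peaks lay within 10 kb of 9 members, all but Hoxd1, against 1.95% of all protein-coding genes. At least 10 lay within 10 kb of Hoxd3, Hoxd8, Hoxd11, Hoxd12 and Hoxd13, a count of 5 of 10 against 0.182%. These counts share peaks between neighbours. All 10 genes had a peak in the window around an annotated transcription start site (TSS) that begins 2 kb before it and ends 1 kb after it, and 44.1% of all protein-coding genes had one there. A peak lay on the start base itself in 9 of the 10, Hoxd4 being the exception, against 32.8% of all protein-coding genes. Coverage was concentrated on the genes from Hoxd8 to the 5' end. At least 50% of the gene body was covered in 7 genes, those from Hoxd8 to Hoxd13 and Evx2, against 1.12% of all protein-coding genes. In the same 7 genes the whole coding sequence lay inside HDAC1 peaks, against 0.834% of all protein-coding genes. These 7 bodies were 1846 to 6567 bp long, and the background shares were not matched for gene length. In the other 3 genes, Hoxd1, Hoxd3 and Hoxd4, between 6.94% and 21.7% of the body was covered.

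**Figure D1:**
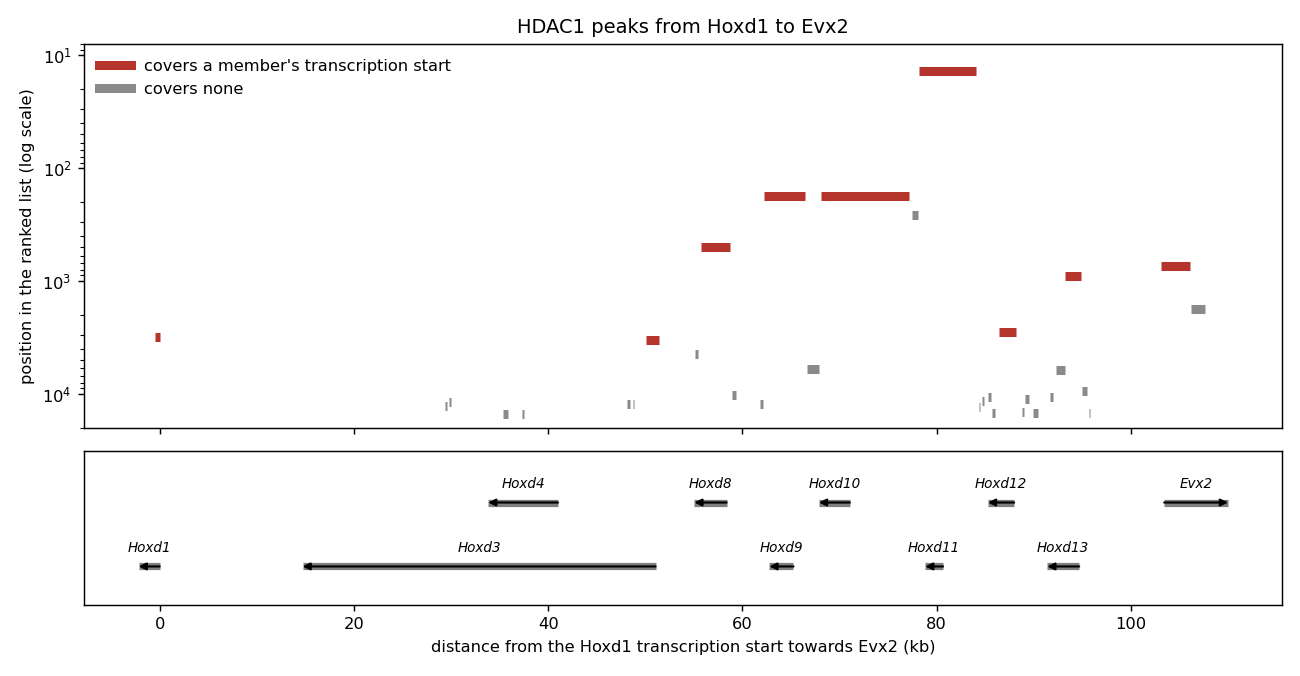
Each bar is 1 of the 32 HDAC1 peaks, drawn to scale along the distance from the Hoxd1 start (x axis, kb) at its position in the ranked list (y axis, log scale, leading peaks on top), with gene bodies and their direction below. Red bars cover the annotated start of a member and grey bars do not. The red bar on top is rank 14 at Hoxd11, and nearly all grey bars sit near the bottom.

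Hoxd1 (ENSMUSG00000042448.5, chr2:74762980-74765142, plus strand), the most 3' gene of the cluster, had a single peak. Peak 1 (chr2:74762900-74763449) was 550 bp long, ranked 3175, and covered the start and 35.4% of the coding sequence. It was also the most GC-rich of the 32 peaks, at 73.6% GC. No other peak lay within 10 kb of this gene. The next peak on the way to Evx2 was 29250 bp away, the widest gap in the cluster.

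Hoxd3 (ENSMUSG00000079277.9, chr2:74711927-74748271) is by far the longest member, because 1 of its transcripts starts near Hoxd8 and runs over Hoxd4. The body held 7 peaks that together covered 6.94% of it. Its coding sequence had no covered base. Peak 8 (chr2:74711600-74712899, 1300 bp, rank 3358) lay on the most upstream of its 3 annotated starts and on a start of Hoxd3os1, an antisense transcript. The other starts were 2866 and 5970 bp from the nearest peak. Of the remaining peaks of this gene, 2 pairs of short peaks lay in introns or over a noncoding exon, at ranks 11864 and 12931 (peaks 3 and 2) and 12375 and 12507 (peaks 7 and 6). All 4 were 200 to 300 bp long.

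Hoxd4 (ENSMUSG00000101174.8, chr2:74721978-74729160) lies inside the Hoxd3 body. It had the lowest-ranked peaks of the cluster. Peak 4 (450 bp, rank 15031) began 76 bp downstream of the nearer of its 2 starts and covered 42.8% of the coding sequence, and peak 5 (200 bp, rank 15047) lay in an upstream exon outside the coding sequence. Both were thus close to the end of the ranked list. Mir10b, a microRNA gene in the upstream part of the Hoxd4 body, lay 371 bp from peak 5 and was not covered. The upstream start of Hoxd4, the one whose promoter is printed above, was 3522 bp from any peak.

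Hoxd8 (ENSMUSG00000027102.4, chr2:74704615-74707933) was the most 3' gene with dense coverage. Peak 10 (chr2:74704250-74707299, 3050 bp, rank 505) covered all 3 of its starts and its whole coding sequence. Peak 9, of only 300 bp, covered part of the last exon at rank 4500. In all, 89.9% of the body was covered, against 9.05% at Hoxd4, the next gene in the 3' direction.

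Hoxd9 (ENSMUSG00000043342.9, chr2:74697727-74700208), active in the upper limb and forearm, was covered from end to end by peak 13 (chr2:74696500-74700749, 4250 bp, rank 179). The same peak contained a start of the antisense transcript Gm28793. Hoxd10 (ENSMUSG00000050368.4, chr2:74691924-74695105) lay 93.7% inside peaks. Its start was in peak 15 (chr2:74685800-74694849), at 9050 bp the longest of the cluster and longer than 99.97% of all 15347 peaks, at rank 178. Most of that peak lay upstream of the gene, in the space towards Hoxd11. These 2 long peaks stood next to each other in the ranked list as well as on the chromosome, with the 1250 bp of peak 14 (rank 6024) between them.

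Hoxd11 (ENSMUSG00000042499.13, chr2:74682323-74684168), a forearm and digit gene, had the leading peak of the cluster. Peak 17 (chr2:74678900-74684849, 5950 bp) ranked 14 in the whole list and covered the whole gene. It reached far enough upstream to contain the second RefSeq promoter of Hoxd11 too, a window with only 4 CpGs. Peak 16, 100 bp beyond it on the 3' side, was only 600 bp long but ranked 261. It held 0.667 CpG per 100 bp and 42.7% GC, and it covered no annotated start. Peak 16 was the shortest of the 4 cluster peaks within the first 500 ranks, the other 3 being peaks 13, 15 and 17.

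Hoxd12 (ENSMUSG00000001823.5, chr2:74675013-74677705) had 3 peaks on its body and 16 within 10 kb, the most of any member. Peak 22 (1800 bp, rank 2827) covered its start and whole coding sequence. The other 2, peaks 20 and 21, were 250 bp each and lay over the last exon at ranks 10712 and 14954. Hoxd13 (ENSMUSG00000001819.4, chr2:74668310-74671599), the gene of the digits and the one mutated in human synpolydactyly, had 15 peaks within 10 kb. Peak 28 (chr2:74668150-74669749, 1600 bp, rank 908) covered its start. Peaks 27 (900 bp, rank 6211) and 26 (300 bp, rank 10654) followed downstream on the same gene, and 80.2% of the body was covered. At the printed Hoxd13 promoter, 200 of 300 bases lay inside peaks 28 and 29, with the 100 bp space between them uncovered.

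Evx2 (ENSMUSG00000001815.15, chr2:74652991-74659557, minus strand), which points away from Hoxd13, had 2 long peaks 50 bp apart. Peak 31 (chr2:74656900-74659849, 2950 bp, rank 749) covered both annotated starts. Peak 32 (chr2:74655350-74656849, 1500 bp, rank 1765) covered no start, and together they covered the whole coding sequence and 63.3% of the body. Peak 32 was the best ranked after peak 16 of the 23 peaks that covered no start of a member. Between Evx2 and Hoxd13 there was a gap of 7300 bp with no peak, the widest on the 5' side of the cluster.

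**Figure D2:**
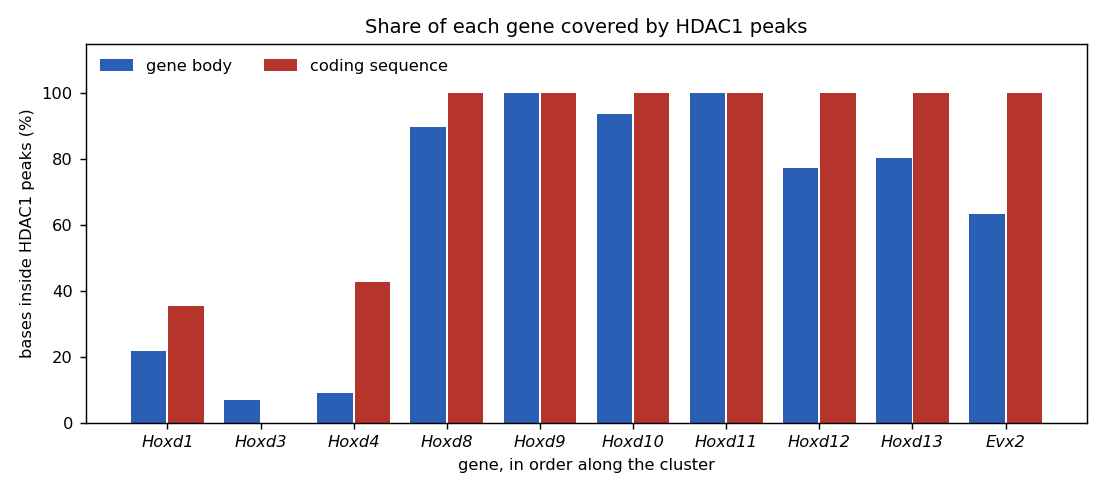
Bars give the percent of each member's gene body (blue) and coding sequence (red) inside HDAC1 peaks, with genes in order along the cluster (x axis) and no error bars because there is 1 peak list. From Hoxd8 to Evx2 every red bar reaches 100%, while Hoxd3 has no red bar and Hoxd1 and Hoxd4 stay below 50%.

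The spaces between genes followed the same order. Between Hoxd1 and Hoxd3, 0.544% of 14708 bp was covered, and between Hoxd3 and Hoxd8, 8.19% of 3993 bp. The space between Hoxd8 and Hoxd9 was covered at 35.3%. Coverage was highest around Hoxd10, with 92.4% of the space between Hoxd9 and Hoxd10 and 95.5% of the 7755 bp between Hoxd10 and Hoxd11. It was lower again further on. The value was 82.8% between Hoxd11 and Hoxd12, 38.5% between Hoxd12 and Hoxd13, and 13.2% between Hoxd13 and Evx2.

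Taken as 2 parts, the 47.2 kb from Hoxd9 to Evx2 held 20 peaks that covered 68.4% of its bases. The 60.5 kb from Hoxd1 to Hoxd8 held 10 peaks that covered 10.5% of its bases, and the remaining 2 peaks lay in the space between Hoxd8 and Hoxd9. The 3' part was uneven, with 89.9% of the body covered at Hoxd8, 21.7% at Hoxd1, 9.05% at Hoxd4 and 6.94% at Hoxd3. The median length was 575 bp in the 5' part and 300 bp in the 3' part. Neighbouring peaks were also closer in the 5' part, with a median gap of 200 bp against 1450 bp. All 3 peaks over 4 kb, those at Hoxd9, Hoxd10 and Hoxd11, were in the 5' part. The difference in coverage between the parts was 57.9 percentage points, and with 1 list it has no replicate error.

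The 32 peaks varied from 150 to 9050 bp in length and from 14 to 15047 in rank. Their median length was 425 bp, against 450 bp for all 15347 peaks, but both ends of the range were well filled. Peaks over 2 kb made up 5 of the 32, against 2.84% of all peaks. Of the members, 11 were among the first 3836 ranks and 13 among the last 3837, while 3 and 5 lay in the ranks between. The median rank was 10431.5, below the middle of the list at 7674. The cluster thus combined a few long, leading peaks with many short ones near the end of the list. Its peaks were 0.209% of the list by number and 0.402% of it by covered bases.

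These kinds largely differed in whether they lay on a gene start. The 9 peaks on a member's start were 550 to 9050 bp long with a median of 2950 bp, and all 9 were among the first 3836 ranks. The 23 other peaks were 150 to 1500 bp long with a median of 300 bp, and 2 of them were among the first 3836 ranks. Of these 23, 13 were among the last 3837 ranks. Over the whole list, 6807 peaks (44.4%) covered the start of a protein-coding gene. Length and rank went together there as well. The median rank was 1837.5 for all peaks over 1000 bp and 11812 for all peaks of up to 300 bp. The tie between length and rank is therefore not particular to the cluster. Lengths and ranks of peaks on and off a start were not compared over the whole list. Only 18 of the 32 peaks (56.2%) lay in the TSS window of a protein-coding gene, which is below the 70.1% of all peaks. Peaks were also sorted by the annotation class with the largest share of their bases, which was below 50% in several of the long peaks. That class was intergenic in 9 cluster peaks, against 3613 of all 15347 peaks. It was intronic in 8, against 7179, and coding exon in 5, against 1695. In another 8 cluster peaks that class was exon sequence outside the coding part, against 2318 of all peaks. In 2 it was exons of noncoding transcripts, against 542 of all peaks.

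**Figure D3:**
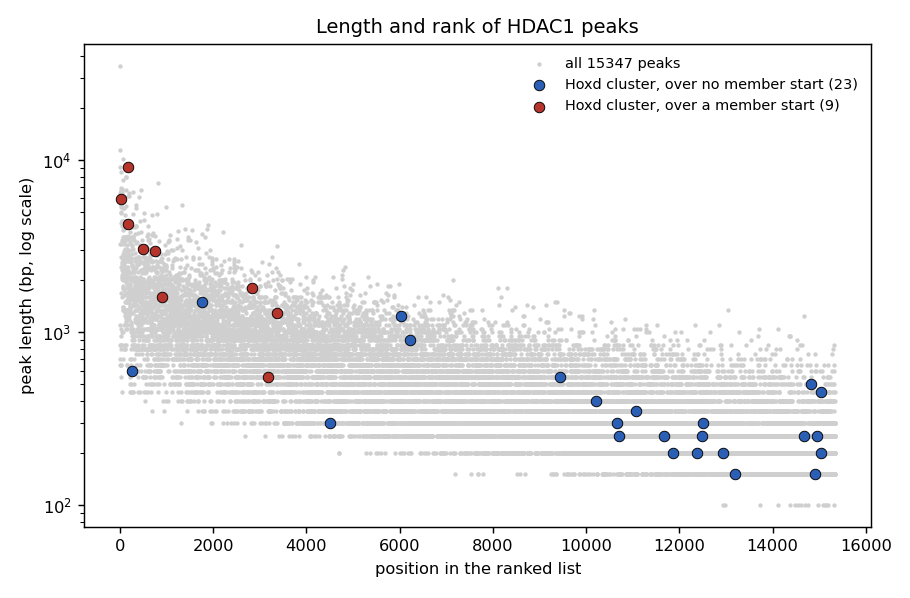
Each point is an HDAC1 peak, with its position in the ranked list on the x axis and its length (bp, log scale) on the y axis. The 9 Hoxd cluster peaks over a member's start (red) lie at the upper left, at rank 3358 or better, and most of the 23 others (blue) lie at the lower right among all 15347 peaks (grey).

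Many cluster peaks were separated by very short spaces. Of the 31 gaps between neighbours, 12 were 200 bp or less. The shortest were 50 bp, which is the step in which all peak lengths in the list are given. Gaps of 200 bp or less were 5 of 11 in the Hoxb cluster, 7 of 28 in Hoxa and 5 of 26 in Hoxc. Joining neighbours with a gap of up to 200 bp left 13525 blocks from the 15347 peaks of the list, and 20 from the 32 cluster peaks. Short gaps were thus more frequent in the Hoxd cluster than over the list, but they also occurred in the other Hox clusters. After joining neighbours with a gap of up to 500 bp, 11 peaks from Hoxd12 to just past Hoxd9 formed a block of 26350 bp (chr2:74674800-74701149), of which 91.3% was covered. It was the second longest of 12637 such blocks in the genome, after the 35050 bp peak in the Hoxa cluster. Joined at 200 bp, the longest Hoxd block was 15350 bp, over Hoxd9 and Hoxd10, and again second of 13525. The distances of 200 and 500 bp were chosen after the gaps had been seen. Whether the uncovered spaces inside the block are free of HDAC1 or only below the peak threshold cannot be read from the coordinates.

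Base composition of the peaks was read from the reference genome. The median GC content of the 32 peaks was 52.4%, against 62.9% for all peaks, and their median CpG density was 4.19 per 100 bp, against 7.40. The lower values held in each length class. Peaks of up to 300 bp had a median of 47.4% GC (14 peaks) against 56.0% for all such peaks, those over 300 to 1000 bp 51.2% (8 peaks) against 64.4%, and those over 1000 bp 57.2% (10 peaks) against 65.0%. Within the cluster the covered bases were nonetheless richer, with 53.6% GC inside peaks and 45.7% outside, and 4.67 against 1.70 CpGs per 100 bp. GC content thus moved with coverage, and its part in the peak calls was not tested.

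In bins of 500 bp, 25 of 264 bins were CpG-rich (at least 55% GC and an observed to expected CpG ratio of at least 0.65). HDAC1 peaks covered at least 50% of the bin in 20 of these 25 bins and in 63 of the 239 others (26.4%). The parts of the cluster differed in the bins that were not CpG-rich. From Hoxd9 to Evx2, 51 of 79 such bins (64.6%) were covered, and all 15 CpG-rich ones. From Hoxd1 to Hoxd8, 8 of 111 such bins (7.21%) and 5 of 10 CpG-rich bins were covered. Of the 5 CpG-rich bins not covered, 4 lay 9.74 to 16.2 kb from the Hoxd1 start and had no covered base at all. They lay around the noncoding gene Gm14424, the lncRNA gene Haglr and the 3' end of Hoxd3. CpG-rich sequence in the 3' part was therefore not always covered, and CpG-poor sequence in the 5' part mostly was.

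**Figure D4:**
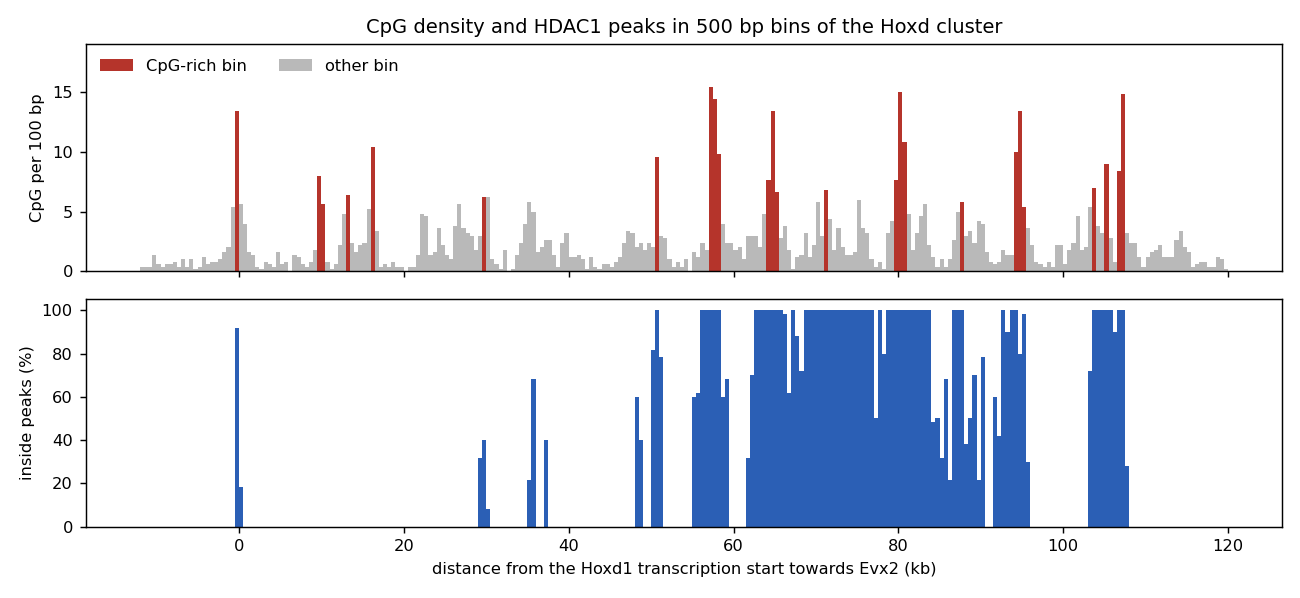
The upper panel gives the CpG density (CpG per 100 bp) of 264 bins of 500 bp along the cluster, with CpG-rich bins in red, and the lower panel the percent of each bin inside HDAC1 peaks, against the distance from the Hoxd1 start (kb). On the right, from Hoxd9 to Evx2, all 15 red bins and 51 of 79 grey bins are at least 50% covered, while 4 red bins from 9.74 to 16.2 kb have no covered base.

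Other transcripts annotated between the outer genes were read in the same way. Starts of 5 of these 10 genes lay in a peak, those of Hoxd3os1, Gm28793, Gm14396, Gm28309 and Gm44463, and 4 of the 5 start between Hoxd8 and Hoxd12. The share over all noncoding genes was not computed, so this count has no background. All but Gm28230 are annotated as noncoding. Gm28230, a protein-coding entry inside the Hoxd3 body, was covered over 4.01% of its length and started 422 bp from the nearest peak. The noncoding transcript Gm28309, which runs from Hoxd11 to Hoxd10, was covered over 96.7% of its length. Haglr, a lncRNA gene just past the 3' end of Hoxd3 that is read in the opposite direction, had no covered base in its basic transcript, which started 12394 bp from the nearest peak. The short noncoding genes Gm14424 and Gm14426, between Haglr and Hoxd1, also had none. Longer transcripts of Haglr and other genes that are outside the basic set were not used for gene bodies.

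The cluster was bounded by long stretches with no peak. Beyond Evx2 the next peak (650 bp, rank 7789) was 76250 bp away, over the start of Lnpk, an endoplasmic reticulum shaping gene. Beyond Hoxd1 the next (350 bp, rank 3017) was 62450 bp from peak 1 and 60757 bp from the gene. It lay 97 bp from the start of Mtx2, a mitochondrial import gene. Both lie well outside the 10 kb added to the genes, so no peak was near the limit of the selection. In the 1 Mb beyond Evx2, 11 peaks covered 0.455% of the sequence, and in the 1 Mb beyond Hoxd1, 16 peaks covered 0.780%. Of these peaks, 5 of the 11 and 4 of the 16 were near the TSS of a protein-coding gene, so the windows hold more than gene desert. Both windows together had fewer covered bases than the cluster. With 10 kb added at each end, 30.5% of the 132 kb of the cluster was covered, against 0.367% of the chromosomes in the list.

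The 3 other Hox clusters, measured between their outer genes with 10 kb added, were set beside the Hoxd cluster. These spans are unlike. The Hoxa span reaches Evx1, and its widest gap with no peak, 45250 bp, lies between Hoxa13 and Evx1. The Hoxb span reaches Hoxb13, whose start was 77134 bp from the nearest peak. At Hoxd, 8752 bp separate Hoxd13 from Evx2. The percents below therefore depend on these limits. The Hoxa cluster held 29 peaks over 183 kb and was covered at 32.8%, against 30.5% at Hoxd, but 58.5% of its covered bases were in a single peak of 35050 bp. In the Hoxd cluster the longest peak held 22.5%. The Hoxc cluster held 27 peaks that covered 10.5% of 136 kb, and the Hoxb cluster 12 peaks that covered 2.09% of 194 kb. The leading peak ranked 14 at Hoxd, 5 at Hoxa, 1205 at Hoxc and 7304 at Hoxb. A start lay in a peak for 9 of 12 Hoxa genes (Evx1 included), 2 of 9 Hoxc and 1 of 10 Hoxb genes, against 9 of 10 at Hoxd (Evx2 included). The number of genes with at least 50% of the body covered was 7 at Hoxd, 8 at Hoxa, 1 at Hoxc and 0 at Hoxb. These are counts over neighbouring genes in 1 list and were not tested.

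Paralogues, which descend from 1 ancestral gene and carry the same number, were compared by body coverage. In group 11 coverage was high in every cluster that has the gene, with 100% at Hoxd11 and Hoxa11 and 92.1% at Hoxc11. In group 9 it was 100% at Hoxd9 and Hoxa9, 27.9% at Hoxc9 and less at Hoxb9. In group 10 it was 93.7% at Hoxd10, 100% at Hoxa10 and 24.6% at Hoxc10. These groups were thus covered at Hoxd and Hoxa alike. In group 12 Hoxd12 had 77.5% and Hoxc12, its only paralogue, 13.5%. In group 13, Hoxd13 (80.2%) and Hoxa13 (92.2%), the pair needed for digits, were covered, while Hoxb13 and Hoxc13 had no covered base. Group 8, which Hoxa lacks, had 89.9% at Hoxd8, 5.86% at Hoxb8 and none at Hoxc8. At the 3' end, Hoxd4 (9.05%) was below Hoxa4 (50.6%) and Hoxb4 (44.5%) but above Hoxc4 (0.837%). Hoxd3 (6.94%) was likewise below Hoxa3 (29.2%), with none at Hoxb3, whereas Hoxd1 (21.7%) was the only group 1 gene with a covered base. These bodies are unlike, with 7183 bp at Hoxd4 against 2083 bp at Hoxa4 and 3372 bp at Hoxb4. Of the coding sequence, 42.8% was covered at Hoxd4, 59.8% at Hoxa4 and 59.5% at Hoxb4. The Hoxa3 body runs over Hoxa4, Hoxa5 and Hoxa6, so its coverage includes peaks on those genes. Of the Hoxa3 coding sequence, 15.0% was covered. Evx2 was covered at 63.3% and Evx1, its counterpart beside Hoxa13, at 19.5%.

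**Figure D5:**
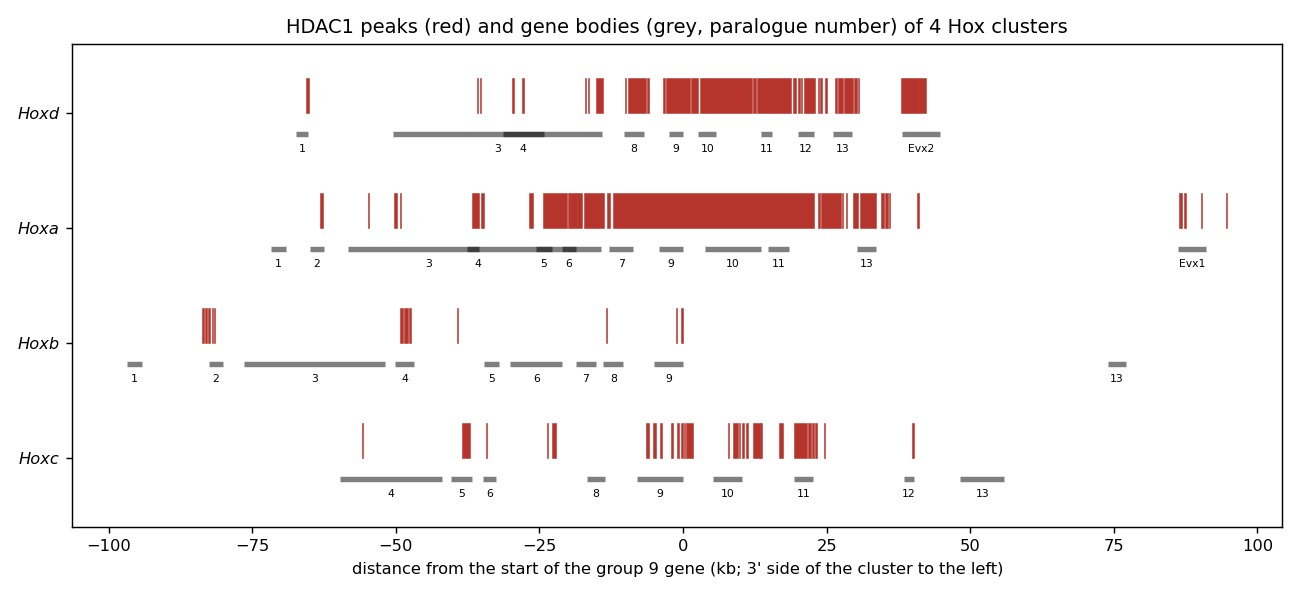
HDAC1 peaks (red) and gene bodies (grey, with paralogue numbers) of the 4 Hox clusters are drawn to scale along the distance from the start of the group 9 gene (kb), with the 3' side of each cluster to the left. Hoxd and Hoxa hold near-continuous red stretches around group 9 to 11, while Hoxb and Hoxc hold scattered ones.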

How the data were processed

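HDAC1 ChIP-seq was performed by the authors on 4 ChIP and 3 input samples of pooled E11.5 limb buds. Reads were aligned with Bowtie2 2.2.5 to mm10 per the submitters' processing notes, and CisGenome was used for peak calling, and peaks under a false discovery rate of 0.05 were kept. The list that the authors deposited and that was used here gives peak coordinates, in rank order and for the 4 ChIP samples together, so replicates could not be compared. Fold changes and false discovery rates, which the study describes for each peak, were not used here. All lengths are multiples of 50 bp.

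Coordinates were read as 1-based with both ends included and intersected with GENCODE M21 basic transcripts. GRCm38.p6 has the mm10 coordinates, and no peak passed a chromosome end. TSS windows began 2 kb before a start and ended 1 kb after it. Coverage is the percent of bases inside peaks, and background shares are over 21938 protein-coding genes or all peaks. The genes and lists were chosen with earlier results of these data known. All 10 members are named, with other genes between them, the nearest coding genes outside, and paralogues. No test was run, since there is 1 list. Overlap and merging matched a base-by-base count in 200 of 200 simulations. Python 3.11.15, numpy 2.4.6, pandas 2.3.3 and matplotlib 3.10.9 were used.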

Additional observations from a re-analysis of the deposited data

How the results depend on the processing

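Values were recomputed under 27 alternatives, of which 12 moved the value and 15 did not. A count moved if it changed by more than 1.5 times, and a coverage if it changed by any amount. The median length moved if it left an interval of 250 to 1250 bp. That is a 95% interval from binomial order statistics, which treats neighbouring peaks as independent although they are not. It is a yardstick only and measures no replicate error. The number of peaks fell from 32 to 14 in the first 7673 peaks of the list, to 10 after merging neighbours with gaps of up to 1000 bp, to 20 at 200 bp and to 11 at 500 bp, of which the last pair was added after seeing the data. With gene bodies alone the number was 22, a change of less than 1.5 times, so the other peaks entered only through the added 10 kb. The median length of 425 bp became 1550 bp in the first 7673 peaks and 1300 bp after merging at 500 bp. It was 725 bp with gene bodies alone and 1025 bp after merging at 1000 bp, both inside that interval but more than 1.5 times the reported value. Coverage of the cluster, 30.5% with 10 kb added at each end, was 35.9% with 0 kb, 33.0% with 5 kb, 26.5% with 20 kb and 26.5% in the first 7673 peaks. The difference between Hoxd9 to Evx2 and Hoxd1 to Hoxd8 kept its direction, at 47.4 percentage points with 10 kb added at the outer ends and 54.1 in the first 7673 peaks, against 57.9. These shifts follow from the construction of each alternative (fewer or joined peaks, other limits). The 10 genes with a peak at a TSS became 9 with the start base alone and in the first 7673 peaks, and Hoxd4 was the gene lost on the start base.

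No paired analysis was possible because a single set of coordinates stands for every ChIP sample, and leaving out a replicate was not run for the same reason. A base outside peaks is one below the threshold and is not shown to lack HDAC1.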
